A study of Mus musculus with 24 samples.

Results

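The 6 genes described here encode the mouse receptors for the constant (Fc) part of immunoglobulin G (IgG) and their shared signalling chain. They are the activating receptors Fcgr1, Fcgr3 and Fcgr4, the signalling chain Fcer1g, the inhibitory receptor Fcgr2b and the neonatal Fc receptor Fcgrt. They were taken by name, and not by a threshold on a measured value, out of the 17301 genes in the deposited expression table, and each name matched 1 gene. The myeloid cells measured came from a pair of tissues and were sorted by flow cytometry. The first was the colonic lamina propria (LP), the connective tissue under the gut epithelium, of C57/BL mice. The second was colon tumours of Apc Min/+ animals, in which a germline Apc mutation leads to intestinal adenomas. Macrophages, monocytes and neutrophils were taken from each, as F4/80hi macrophages with high or low MHCII (hereafter MHCIIhi and MHCIIlow macrophages), monocytes (Ly6Chi, MHCII-) and neutrophils (Ly6Ghi, F4/80-, CD11b+). This gave 8 groups of 3 libraries and a total of 24, from tissue pooled from 13 to 15 mice. Strain and tissue changed together, so that the Min allele and the tumour cannot be told apart. Cell isolation changed with the tissue too. Per the methods, LP was treated with EDTA to remove the epithelium and then digested with collagenase for longer than tumours were. Tumours were digested with collagenase and DNase, and the density gradients also differed. The effects of isolation and tissue thus cannot be told apart either. The mice with tumours had drunk dextran sodium sulphate (DSS), which injures the colon and speeds tumour growth, and DSS-treated mice were killed at 3 to 4 months of age. The methods describe DSS for control mice too, at another concentration, while the labels call the LP healthy, so that the treatment of the LP donors is not settled here.

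Receptors for IgG let myeloid cells take up antibody-coated particles and respond to immune complexes. The activating receptors bind IgG outside the cell and signal through the common gamma chain encoded by Fcer1g, whose tail carries a pair of tyrosines (an immunoreceptor tyrosine-based activation motif, ITAM) that Src family kinases phosphorylate and that the kinase Syk then binds. Fcgr2b carries an inhibitory motif (ITIM) with a single tyrosine in its own tail and recruits phosphatases, chiefly the lipid phosphatase SHIP1 (Inpp5d). Macrophages usually carry activating and inhibitory receptors together, and their balance sets the threshold for a response. Fcgrt is a relative of major histocompatibility complex (MHC) class I proteins. It binds IgG inside acidic endosomes together with beta-2-microglobulin (B2m) and returns it to the surface, so that IgG is spared from breakdown.

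In the GENCODE M21 annotation of GRCm38, the build of the deposited values, all 6 genes are protein coding. Fcgr2b (ENSMUSG00000026656.11, chr1:170958617-170976547, minus strand), Fcgr4 (ENSMUSG00000059089.4, chr1:171018920-171029761, plus strand), Fcgr3 (ENSMUSG00000059498.9, chr1:171051174-171064935, minus strand) and Fcer1g (ENSMUSG00000058715.7, chr1:171229572-171234365, minus strand) lie on chromosome 1. Fcgr1 (ENSMUSG00000015947.6, chr3:96282909-96293969, minus strand) lies on chromosome 3 and Fcgrt (ENSMUSG00000003420.7, chr7:45092990-45103851, minus strand) on chromosome 7. The stretches of coding sequence that make Fcer1g an activating chain and Fcgr2b an inhibitory receptor are given 5′ to 3′ on the coding strand, with the tyrosine codons of the motif in capitals.
Fcer1g ITAM: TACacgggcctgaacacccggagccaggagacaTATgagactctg
Fcgr2b ITIM: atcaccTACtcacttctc
The ITAM holds codons 65 to 79 of 86 and lies in exons between chr1:171229889 and chr1:171230072, across an intron. The ITIM holds codons 317 to 322 of 340 and lies in coding exon sequence at chr1:170961071-170961088. No ITAM-type codon pattern was found in the other 5 genes. The short ITIM-type pattern also matched outside known inhibitory tails, 3 times in Fcgr1 and 1 time each in Fcgr4, Fcer1g and Fcgrt, so that a match is only a description.

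Fcgr3 and Fcgr2b, an activating and an inhibitory receptor, share long identical stretches, and a single read that lies within these matches both genes. Reads were sequenced in pairs, and how often the other read of a pair would place it was not examined. The longest identical run in their coding sequences had 129 bases, and is shown because it is longer than the 51 bases of a read.
Fcgr3 and Fcgr2b: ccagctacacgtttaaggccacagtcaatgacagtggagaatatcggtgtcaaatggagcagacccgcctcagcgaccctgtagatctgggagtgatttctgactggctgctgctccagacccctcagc
It lies in exons between chr1:171054167 and chr1:171057792 in Fcgr3 and between chr1:170966674 and chr1:170968081 in Fcgr2b. Of all stretches of 51 bases in the transcripts of Fcgr3, 163 of 1733 (9.41%) also occurred in Fcgr2b, and these were 2.87% of the 5689 stretches of Fcgr2b. With other genes included, 393 stretches of Fcgr2b (6.91%) occurred elsewhere, whereas those of Fcgr1, Fcgr4, Fcer1g and Fcgrt were found in no other gene. Besides, 2.7% of the exon bases of Fcgr2b overlap the antisense gene Gm38204, and the sources used here do not state whether counting used strand.

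Bases before the annotated transcription starts (RefSeq, GRCm38.p6) are shown for the 3 activating receptors, in which the motif GAGGAA, a core bound by the myeloid factor PU.1, was searched on both strands and appears here as its reverse complement TTCCTC, in capitals.
Fcgr1 (chr3:96293970-96294089, minus strand): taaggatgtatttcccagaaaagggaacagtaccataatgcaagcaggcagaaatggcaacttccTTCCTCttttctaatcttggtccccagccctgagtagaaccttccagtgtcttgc
Fcgr3 (chr1:171059404-171059523, minus strand): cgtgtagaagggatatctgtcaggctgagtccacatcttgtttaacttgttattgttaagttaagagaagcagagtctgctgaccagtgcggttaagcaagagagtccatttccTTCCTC
Fcgr4 (chr1:171018806-171018925, plus strand): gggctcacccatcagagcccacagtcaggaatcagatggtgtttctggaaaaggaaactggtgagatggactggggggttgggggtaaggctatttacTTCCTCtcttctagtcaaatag
The motif starts at position -55 in Fcgr1, -6 in Fcgr3 (-15 from the second of its annotated starts) and -22 in Fcgr4, with the last base before the start as -1. No match was found in the window of 250 bases before the starts of Fcer1g, Fcgr2b and Fcgrt, and 23.3% of 32851 promoters of this length hold one. The matches are descriptions of letters and not of binding.

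The libraries held 12.8 to 41.7 M reads on genes, and the members between 0 and 78723 reads each. Deposited values were log2 RPKM (reads per kilobase of gene, relative to library size), and each held a scaling of the library size that ran from 0.98 to 1.51 times the reads on genes outside neutrophils, but 0.63 to 0.68 in LP and 0.47 to 0.48 in tumour neutrophils. Comparisons with neutrophils therefore depend on this scaling: the median log2 fold change of all genes between neutrophils and monocytes was -0.24 in LP and -0.36 in tumour as deposited, and -1.07 and -1.49 without the factors. Macrophage markers (6 genes, summed RPKM) stood at 3070 to 6180 in macrophages and at 184 to 722 in the other cells, and neutrophil markers (6 genes) at 11300 to 28200 in neutrophils and at 23.4 to 299 elsewhere. The 5 monocyte markers stood at 323 to 660 in monocytes, at 2.35 to 19.1 in macrophages and at 571 to 985 in neutrophils, and therefore do not mark monocytes off from neutrophils. B and plasma cell markers (5 of 6 measured) reached 156 to 575 in LP monocytes and 356 to 1290 in LP neutrophils, against 0.0373 to 3.06 and 0.654 to 19.9 in their tumour counterparts. In sorted bulk cells, fewer cells that express a gene and less RNA per cell cannot be told apart.

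All 6 genes passed the filter on low values and were tested with limma among 12878 genes, with Benjamini-Hochberg adjusted p values over all genes of a comparison and a threshold of 0.05. Between tumour and LP, 0 of the 6 were called in MHCIIhi macrophages, where 19.5% of all genes were called, and 0 in MHCIIlow macrophages, where 23.3% were. At an unadjusted p under 0.05 the counts were 1 (Fcgr2b) and 2 (Fcgr4 and Fcgr2b). In monocytes 2 genes rose (Fcgr3 and Fcgr2b) and 1 fell (Fcgr1), against 9.29% of all genes called, and in neutrophils 1 rose (Fcgr2b) and 1 fell (Fcgr1), against 32.2%. With limma's voom on the recovered reads, the counts were 3 in MHCIIhi macrophages, 2 in MHCIIlow macrophages and 1 in neutrophils.

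**Figure D1:**
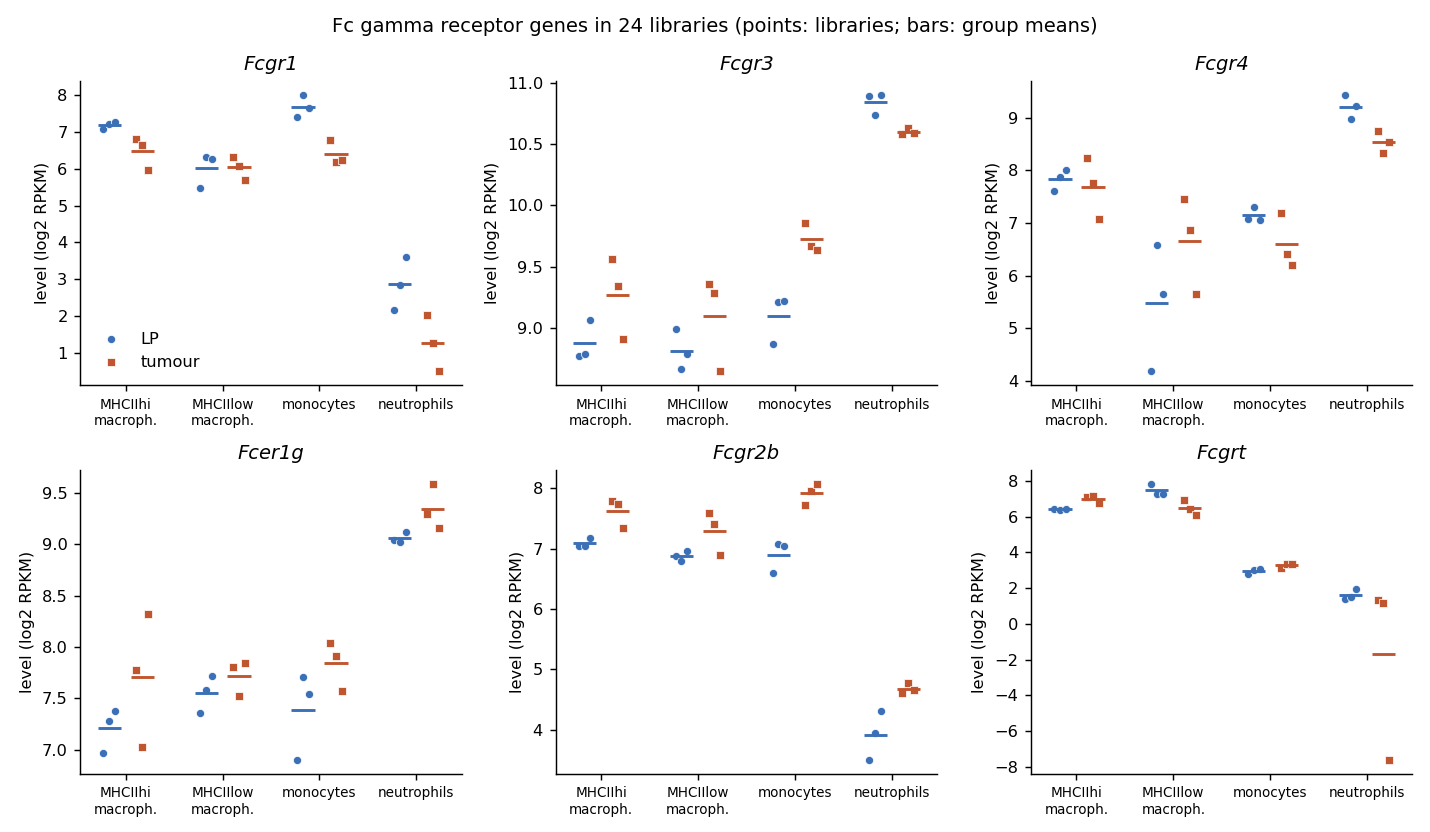
Level of each gene in the 24 libraries, in log2 RPKM, with 1 point per library and a bar at the mean of the 3 libraries of each group. In the deposited scaling Fcgr3, Fcgr4 and Fcer1g have their highest means in neutrophils (without the factors not so for Fcgr3 and Fcgr4 in tumour neutrophils), Fcgr1 and Fcgr2b have their lowest there, and the point of Fcgrt at -7.62 is a tumour neutrophil library with 0 reads.

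Fcgr1, the high-affinity receptor for monomeric IgG and a gene induced by interferon gamma, fell in tumour monocytes and tumour neutrophils. In LP monocytes the 3 libraries stood at 7.41, 8.01 and 7.66 log2 RPKM, and in tumour monocytes at 6.78, 6.18 and 6.23. Every tumour library lay below every LP library, and the log2 fold change was -1.30 (SE 0.36, 95% CI -2.05 to -0.55, limma adjusted p = 0.026), a 2.46-fold lower level. It was past the threshold under 14 of 18 alternatives (adjusted p 0.00105 to 0.0954) and not without LP library IV or V or tumour library II or V (0.0711 to 0.0954). LP neutrophils stood at 2.16, 2.85 and 3.6 and tumour neutrophils at 2.02, 1.28 and 0.50, again without overlap. These values rest on 251 to 672 reads in LP and 28 to 131 reads in tumour neutrophils. The mean RPKM was 7.92 in LP neutrophils against 210 in LP monocytes, and the part of other cells in it was not tested. The change in neutrophils was -1.60 (SE 0.36, limma adjusted p = 0.00192), and it was not past the threshold with voom (0.216) or with only the neutrophil libraries in the fit (0.102), over a range from 7.43e-05 to 0.216. In both populations the fall was past the threshold under each other scaling of the libraries.

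In macrophages the difference between tissues in Fcgr1 was not past the threshold. LP MHCIIhi macrophages stood at 7.07, 7.21 and 7.27 and tumour MHCIIhi macrophages at 6.81, 6.64 and 5.97. These groups did not overlap, but the difference of -0.71 missed the threshold (SE 0.36, 95% CI -1.46 to 0.04, limma adjusted p = 0.188). Of 19 alternatives 1 passed, limma's voom on the recovered reads (SE 0.24, adjusted p = 0.0309), over a range of 0.0309 to 0.529. LP MHCIIlow macrophages stood at 5.48, 6.31 and 6.28 and tumour MHCIIlow macrophages at 6.32, 6.09 and 5.70, with a difference of 0.01 (95% CI -0.73 to 0.76) that turned to -0.05 when libraries were centred on their median. The order of the group means ran from LP monocytes (7.69) over LP MHCIIhi macrophages (7.19) to tumour MHCIIhi macrophages (6.48), tumour monocytes (6.4), tumour MHCIIlow (6.04) and LP MHCIIlow macrophages (6.02), and then to LP (2.87) and tumour neutrophils (1.27). The ranges of neighbours overlapped from tumour MHCIIhi macrophages down to LP MHCIIlow macrophages and were apart elsewhere. The tumour effect on Fcgr1 was not shown to differ between MHCIIhi macrophages and monocytes, with a difference of 0.59 (95% CI -0.47 to 1.65, limma adjusted p = 0.649) and 0 of the 6 genes called against 5.76% of all genes.

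Fcgr3, the low-affinity activating receptor with the highest level of the family in every group, was most abundant in neutrophils. LP neutrophils stood at 10.89, 10.74 and 10.90 log2 RPKM and LP monocytes at 8.87, 9.21 and 9.22, a difference of 1.74 (SE 0.19, limma adjusted p = 2.12e-07). In tumours the values were 10.58, 10.63 and 10.59 in neutrophils and 9.86, 9.67 and 9.64 in monocytes, a difference of 0.88 (SE 0.19, limma adjusted p = 0.000506) that turned to -0.78 after quantile normalization (3.85e-05) and to -0.25 without the scaling factors (0.137). As counts per M reads on genes (CPM), without scaling factors, Fcgr3 took 2080 ± 62.3 (SD, n = 3) in LP neutrophils, 1110 ± 116 in LP monocytes, 1270 ± 27.4 in tumour neutrophils and 1520 ± 67.8 in tumour monocytes. Fcgr3 was thus above monocytes in LP neutrophils under each scaling, while its direction in tumours depended on the scaling.

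From LP to tumour, Fcgr3 rose by 0.62 in monocytes (SE 0.19, 95% CI 0.22 to 1.01, limma adjusted p = 0.0444), with all tumour libraries above all LP libraries. This call held under 8 of 18 alternatives (0.0165 to 0.18) and under none of the fits that left out 1 monocyte library (0.0622 to 0.18). Neutrophil markers stood at 160 to 299 in tumour and at 98.5 to 135 in LP monocytes, and their part in the difference was not tested. In neutrophils the change was -0.24 (limma adjusted p = 0.359), with no overlap between the groups, and it was 0.00 when libraries were centred on their median, -0.94 after quantile normalization (3.19e-05) and -0.71 without the factors (0.000743). Of the 6 genes, Fcgr3 alone had a tumour effect past the threshold for a difference between neutrophils and monocytes, by -0.86 (SE 0.27, 95% CI -1.42 to -0.30, limma adjusted p = 0.0491), against 9.11% of all genes called. It passed under 9 of 23 alternatives (0.000325 to 0.124) and under none of the 12 fits that left out 1 library of these groups (0.0524 to 0.123). In macrophages the values ran from 8.77 to 9.07 in LP MHCIIhi, 8.91 to 9.56 in tumour MHCIIhi, 8.67 to 8.99 in LP MHCIIlow and 8.65 to 9.36 in tumour MHCIIlow macrophages, and the ranges overlapped between the tissues in both subsets.

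Fcgr4, the activating receptor for mouse IgG2a and IgG2b, separated the macrophage subsets of the LP. LP MHCIIhi macrophages stood at 7.61, 7.88 and 8.01 log2 RPKM and LP MHCIIlow macrophages at 4.19, 6.58 and 5.66. Every MHCIIlow library was lower, by 2.36 on average (SE 0.46, 95% CI of the difference -3.32 to -1.39, limma adjusted p = 0.00286), which is a 5.13-fold lower level. It was the only call among the 6 genes in this comparison, where 7.70% of all genes were called, and it was past the threshold under 19 of 20 alternatives, the exception being a fit with only the libraries compared (0.0877, range 0.000325 to 0.0877). Without LP MHCIIlow library II, the lowest, the difference was -1.71 (adjusted p = 0.019) or 3.27-fold, and with the pool number as a fixed replicate block it was -1.70. Fcgr1 was also lower in LP MHCIIlow macrophages, with no overlap, by a log2 difference of -1.16 that lay at the threshold (SE 0.36, limma adjusted p = 0.0524, and 0.0474 with the pool number as a random replicate block). It passed under 10 of 20 alternatives (0.00235 to 0.229).

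In tumours the difference between the subsets in Fcgr4 was smaller, with values of 8.23, 7.75 and 7.07 in MHCIIhi and 7.46, 6.87 and 5.65 in MHCIIlow macrophages. These ranges overlapped, and the difference of -1.02 (SE 0.46, 95% CI -1.98 to -0.06) had an adjusted p of 0.399 in limma. Here 0 of the 6 genes and 1.13% of all genes were called, and Fcgr4 alone had an unadjusted p under 0.05. Fcgr4 stood 1.19 higher in tumour than in LP MHCIIlow macrophages (SE 0.46, limma adjusted p = 0.0705), and 0.15 lower in tumour than in LP MHCIIhi macrophages with overlapping ranges, a sign that turned without tumour library VII. The difference between these tumour effects was 1.34 (95% CI -0.02 to 2.70, limma adjusted p = 0.407), and in this test 0 of the 6 genes and 1.46% of all genes were called. The LP MHCIIlow libraries held 12.8 to 31.3 M reads, and Fcgr4 had at least 948 reads in each library of the series. Without LP MHCIIlow library III or tumour MHCIIlow library VII the tumour effect in MHCIIlow macrophages was 1.74 (adjusted p = 0.00824) or 1.69 (0.0135), within a range of 0.00824 to 0.42 over 19 alternatives.

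Fcgr4 was highest in neutrophils in the deposited scaling, with 9.43, 8.98 and 9.21 in LP and 8.74, 8.33 and 8.54 in tumours. Monocytes stood at 7.08, 7.30 and 7.06 in LP and at 7.19, 6.42 and 6.21 in tumours, below every neutrophil library. The differences of 2.06 in LP (limma adjusted p = 0.00085) and 1.93 in tumours (0.00133) fell to 0.91 (0.123) and 0.72 (0.222) after quantile normalization, and to 0.80 (0.115) in tumours without the factors. As CPM without the factors, Fcgr4 stood at 488 ± 56.9 in LP and 221 ± 31.8 in tumour neutrophils, and at 332 ± 39.4 in LP and 335 ± 109 in tumour MHCIIhi macrophages, so that tumour neutrophils were then not the highest. In LP MHCIIlow macrophages Fcgr4 was lower than in LP monocytes by 1.67 (limma adjusted p = 0.0094), a call that was lost without LP MHCIIlow library II (a difference of -1.03, 0.0762) or with only the libraries compared (0.0934, range 0.00101 to 0.0934). Between LP and tumour, Fcgr4 changed by -0.54 in monocytes and by -0.68 in neutrophils, and neither passed the threshold (limma adjusted p = 0.552 and 0.285). In neutrophils the groups did not overlap, and the fall passed under 2 of 17 alternatives (0.0435 to 0.51). With only the neutrophil libraries in the fit its adjusted p was 0.0459. Against tumour monocytes, tumour MHCIIhi macrophages stood 1.08 higher (0.0806), and 1.38 higher with the fixed replicate block (0.00307).

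Fcer1g, the signalling chain that the activating receptors need for a stable place at the surface, was highest in neutrophils in the deposited scaling, and none of its differences between tissues passed the threshold. Neutrophils stood at 9.04, 9.02 and 9.12 log2 RPKM in LP and at 9.29, 9.59 and 9.16 in tumours, above all libraries of other cells. Against monocytes it was higher by 1.68 in LP (SE 0.25, limma adjusted p = 1.1e-05) and by 1.51 in tumours (3.13e-05), and by 0.50 (0.138) and 0.18 (0.603) after quantile normalization. As CPM without the factors, tumour neutrophils (242 to 314) overlapped tumour MHCIIhi (141 to 377) and MHCIIlow macrophages (211 to 301). Monocytes ran from 6.90 to 7.71 in LP and from 7.57 to 8.04 in tumours, MHCIIhi macrophages from 6.97 to 7.38 and from 7.03 to 8.32, and MHCIIlow macrophages from 7.36 to 7.72 and from 7.52 to 7.84. In these 6 groups neighbours in the order of means overlapped between the tissues, and the tumour effects were 0.46 in monocytes, 0.50 in MHCIIhi and 0.16 in MHCIIlow macrophages, none of them past the threshold (limma adjusted p = 0.297, 0.18 and 0.706). In neutrophils the effect was 0.29, and it turned to -0.18 without the factors. Relative to the summed RPKM of Fcgr1, Fcgr3 and Fcgr4 in the same library, Fcer1g stood lowest in LP MHCIIhi macrophages (log2 ratio -2.51 ± 0.10, SD, n = 3) and highest in tumour neutrophils (-1.57 ± 0.23) and LP MHCIIlow macrophages (-1.61 ± 0.18).

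Fcgr2b, the inhibitory receptor, rose in tumour monocytes and tumour neutrophils, the populations in which Fcgr1 fell. LP monocytes stood at 6.59, 7.07 and 7.05 log2 RPKM and tumour monocytes at 7.72, 7.95 and 8.08. All tumour libraries lay above all LP libraries, and the rise of 1.01 (SE 0.19, 95% CI 0.60 to 1.42, limma adjusted p = 0.0022) was a 2.01-fold higher level that passed under all 18 alternatives (0.000514 to 0.0328). Neutrophils held far less Fcgr2b, with 3.50, 3.95 and 4.31 in LP and 4.61, 4.78 and 4.66 in tumours. Their rise of 0.76 (SE 0.19, limma adjusted p = 0.00537) was 0.29 without the factors (0.206) and missed the threshold with only the neutrophil libraries in the fit (0.0692). It passed under the other 15 of 17 alternatives, over a range of 0.000626 to 0.206. Fcgr2b had 1204 to 2469 reads in LP and 1122 to 1764 in tumour neutrophils, where Fcgr3 had 39845 to 78723 and 20600 to 33200. Of the stretches of 51 bases in Fcgr3, 9.41% also occurred in Fcgr2b, and their part in the neutrophil values of Fcgr2b was not tested. B cells also express Fcgr2b. The summed B and plasma cell markers given above were lower in the tumour libraries of both populations. Most of that sum in LP was Jchain, and all 5 markers had lower mean levels in tumour neutrophils, while in monocytes Ms4a1 had 0 to 10 reads in LP and 0 to 22 in tumours. Their part in the difference was not tested.

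In macrophages Fcgr2b was higher in tumours without passing the threshold. MHCIIhi macrophages stood at 7.05, 7.05 and 7.17 in LP and at 7.79, 7.74 and 7.34 in tumours, without overlap. The difference of 0.53 (SE 0.19, 95% CI 0.13 to 0.94, limma adjusted p = 0.0614) was past the threshold under 8 of 19 alternatives (0.00283 to 0.187), with 0.0459 without the neutrophil libraries. MHCIIlow macrophages stood at 6.88, 6.80 and 6.97 in LP and at 7.59, 7.41 and 6.89 in tumours, where 1 library lay within the LP range, and the difference was 0.41 (95% CI 0.01 to 0.82, limma adjusted p = 0.141). Between the 4 populations, the tumour effects on Fcgr2b were not shown to differ: MHCIIhi macrophages differed from monocytes by -0.48 (95% CI -1.05 to 0.10), neutrophils from monocytes by -0.25 (95% CI -0.82 to 0.33) and MHCIIlow from MHCIIhi macrophages by -0.12 (95% CI -0.70 to 0.46).

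In the deposited scaling, neutrophils held less Fcgr1 and Fcgr2b than monocytes and more Fcgr3, Fcgr4 and Fcer1g. Against monocytes, 3 of the 6 genes were higher and 2 lower in LP, where 54.5% of all genes were called, and 3 were higher and 3 lower in tumours, where 58.1% were. Fcgr1 was lower by 4.82 in LP (limma adjusted p = 1.19e-09) and 5.13 in tumours (3.57e-10), and Fcgr2b by 2.98 (2.03e-10) and 3.23 (5.11e-11), all under each of 18 alternatives. Of the macrophage comparisons with monocytes, 0 genes were called for MHCIIhi macrophages in LP (20.1% of all genes), where no gene of the 6 but Fcgrt had an unadjusted p under 0.05, and 1 was called in tumours (Fcgrt, 32.1%). For MHCIIlow macrophages, Fcgr1 and Fcgr4 were lower and Fcgrt higher in LP (29.5% of all genes called), and Fcgr3 and Fcgr2b were lower in tumours (32.0%), each by 0.62. Those falls of 0.62 (limma adjusted p = 0.0158 for Fcgr3 and 0.0188 for Fcgr2b) were -0.10 (0.588) and -0.06 (0.805) after quantile normalization, and -0.21 (0.286) and -0.21 (0.383) without the factors. They were also lost without tumour MHCIIlow library VII (0.118 and 0.132), Fcgr3 without tumour monocyte library I (0.0651) and Fcgr2b without tumour monocyte library II (0.0513) or V (0.0775). With the pool number as a fixed replicate block, Fcgr2b stood at -0.42 (0.0521).

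**Figure D2:**
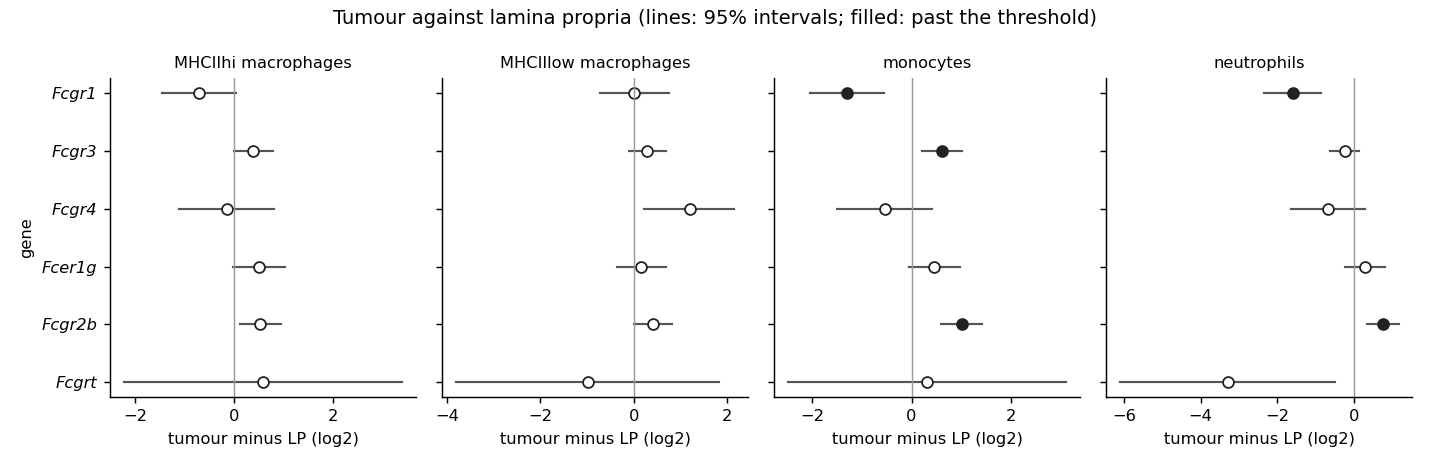
Tumour minus LP difference of each gene in each population, as a log2 fold change with its 95% confidence interval from limma, filled where the adjusted p was under 0.05, on an axis that differs between panels. In monocytes Fcgr1 stands at -1.30 and Fcgr2b at 1.01, in neutrophils at -1.60 and 0.76, and the wide intervals of Fcgrt come from a shared spread that includes the library with 0 reads.

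Fcgrt, the neonatal Fc receptor, marked macrophages off from monocytes and neutrophils. MHCIIlow macrophages of the LP stood highest, at 7.85, 7.26 and 7.28 log2 RPKM, and MHCIIhi macrophages of the LP at 6.41, 6.35 and 6.45. In tumours the values were 7.08, 7.14 and 6.75 in MHCIIhi and 6.91, 6.41 and 6.09 in MHCIIlow macrophages. The subsets thus stood in opposite order in the tissues, with MHCIIlow above MHCIIhi in all LP libraries and overlapping values in tumours. Monocytes stood at 2.80, 3.0 and 3.05 in LP and at 3.11, 3.36 and 3.34 in tumours, and LP neutrophils at 1.36, 1.48 and 1.93. Tumour neutrophil libraries held 54, 32 and 0 reads, and the last value of -7.62 is set by the prior count in the deposited values, since 3 reads would stand at -2.15. The main fit, limma on the deposited values of all 24 libraries, had a standard error of 1.35 for Fcgrt in each comparison of a pair of groups. With voom on the recovered reads, which also includes the library with 0 reads, it was 0.21 to 0.39 for tumour against LP outside neutrophils.

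With all 24 libraries, Fcgrt was called higher in MHCIIlow macrophages than in monocytes of the LP by 4.52 (limma adjusted p = 0.0154, a 22.9-fold higher level), under each of 19 alternatives. In tumours MHCIIhi macrophages were higher than monocytes by 3.72 (limma adjusted p = 0.0396, 13.2-fold), a call that each fit without 1 of these 6 libraries lost (0.0745 to 0.093). With the pool number as a fixed replicate block this value was 4.62 (0.162), while in LP the block gave 3.45 for MHCIIhi macrophages against monocytes (6.46e-06), 0.95 for MHCIIlow against MHCIIhi macrophages (0.0119) and -1.36 for neutrophils against monocytes (6.05e-05). A fit without the 6 neutrophil libraries was added after the data had been seen. There all 4 differences between macrophages and monocytes were past the threshold, among them MHCIIhi in LP (3.45, adjusted p = 2.12e-08, against 0.0767 in the main fit) and MHCIIlow in tumours (3.20, 1.82e-08, against 0.0764). In the same fit Fcgrt was higher in MHCIIlow than in MHCIIhi macrophages of the LP by 1.06 (0.00309, against 0.765), higher in tumour than in LP MHCIIhi macrophages by 0.59 (0.0375, against 0.827), and lower in tumour than in LP MHCIIlow macrophages by a difference of -0.99 (0.00141, against 0.663). The difference between these tumour effects was -1.58 (0.0116, against 0.864 in the main fit), and over all alternatives its adjusted p ran from 0.00443 to 0.941. Voom on the recovered reads of all 24 libraries also called these differences. They were 1.09 for MHCIIlow against MHCIIhi macrophages of the LP (adjusted p = 0.0015) and 0.6 for tumour against LP in MHCIIhi macrophages (0.0411). In MHCIIlow macrophages the tumour effect was -1.02 (0.00108), and the difference between the tumour effects was -1.61 (0.00443). With only the 12 macrophage libraries in the fit, the difference between the tumour effects (0.0582) and the effect in MHCIIhi macrophages (0.0819) missed the threshold. The effect in MHCIIlow macrophages (0.00898) and the difference between the LP subsets (0.0195) passed it there. In this order, the 4 differences passed under 2 of 25, 3 of 19, 4 of 19 and 6 of 20 alternatives. With 3 reads set for the library with none, LP neutrophils were at least 1.84-fold and tumour monocytes at least 5.82-fold above the mean RPKM of tumour neutrophils. The call of Fcgrt as lower in tumour neutrophils than in tumour monocytes (limma adjusted p = 0.00359) had a size set by the library with 0 reads: without that library the difference was -2.02 (3.61e-07), and the fixed block gave an adjusted p of 0.0599.

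Epithelium and endothelium also use Fcgrt. Epithelial markers (5 genes, summed RPKM) stood at 11 to 14.6 in LP and 7.14 to 125 in tumour MHCIIlow macrophages, and endothelial markers (5 genes) at 0.90 to 10.2 and 10.4 to 17.5. In MHCIIhi macrophages, where Fcgrt was higher in tumours, epithelial markers stood at 3.42 to 10.3 in LP and at 5.35 to 37.1 in tumours and endothelial markers at 16.7 to 18.9 and 15.5 to 20.9, and the part of these cells in Fcgrt was not tested in either subset. Dendritic cell markers (5 genes) fell from 51.3 to 73.1 in LP to 5.04 to 14.4 in tumour MHCIIhi macrophages. They stood at 9.18 to 16.8 in LP and 3.45 to 5.41 in tumour MHCIIlow macrophages. In monocytes they stood at 36.4 to 43.3 and 9.0 to 28.4, and in neutrophils at 91.6 to 187 and 2.21 to 19.1. Their part was not tested for any difference here.

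The activating and the inhibitory receptors were set against each other within each library, as log2 of the summed RPKM of Fcgr1, Fcgr3 and Fcgr4 less log2 RPKM of Fcgr2b. A factor common to all genes of a library cannot change this value. Quantile normalization is not such a factor, and the value was not recomputed after it. It is a description without a test. Fcgr2b is counted over 5790 bases of merged exons, a divisor that is the same in every group. Which transcripts each group uses was not examined. The value was 2.63 ± 0.10 (SD, n = 3) in LP and 2.21 ± 0.17 in tumour MHCIIhi macrophages, with no overlap. It was 2.29 ± 0.10 and 2.20 ± 0.09 in MHCIIlow macrophages, where the tissues overlapped. In monocytes it stood at 3.01, 2.91 and 2.81 in LP and at 2.49, 1.98 and 1.81 in tumours, apart from each other, so that the mean ratio went from 7.51 to 4.26. In neutrophils it stood at 7.84, 7.17 and 6.99 in LP and at 6.33, 6.12 and 6.25 in tumours, and the mean ratio went from 161 to 75.3. The part of the stretches that Fcgr3 and Fcgr2b share in these neutrophil values was not tested. The shift toward Fcgr2b in tumours was thus -0.42 in MHCIIhi macrophages, -0.09 in MHCIIlow macrophages, -0.82 in monocytes and -1.10 in neutrophils. In LP the monocytes had the highest balance outside neutrophils, and in tumours the ranges of monocytes and both macrophage subsets overlapped.

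**Figure D3:**
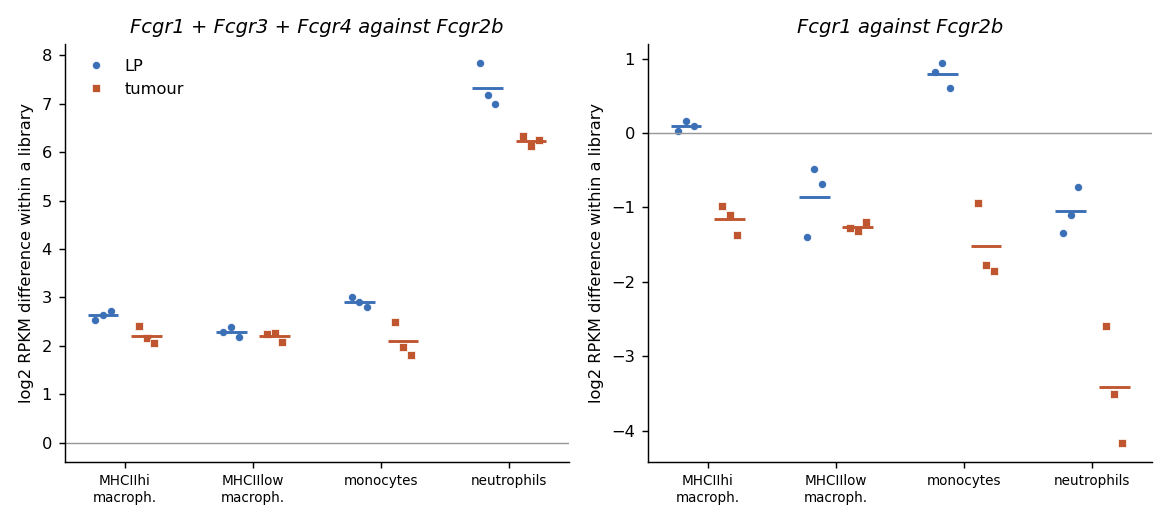
Balance of activating and inhibitory receptors in each library, as log2 of summed Fcgr1, Fcgr3 and Fcgr4 RPKM minus log2 Fcgr2b RPKM, with 1 point per library and a bar at the group mean (left), and the same for Fcgr1 alone (right). On the left, tumour libraries lie below LP libraries in MHCIIhi macrophages (2.21 against 2.63), monocytes (2.09 against 2.91) and neutrophils (6.23 against 7.33) and overlap them in MHCIIlow macrophages.

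The activating receptors did not share in this shift alike. Fcgr1 against Fcgr2b moved by -2.31 in monocytes, -2.36 in neutrophils and -1.24 in MHCIIhi macrophages, with no overlap between tissues, and by -0.40 in MHCIIlow macrophages, with overlap. Fcgr4 against Fcgr2b moved by -1.56, -1.44 and -0.68 in the same order, without overlap, but by 0.77 in MHCIIlow macrophages, with overlap. For Fcgr3 the shift was -0.39 in monocytes and -1.0 in neutrophils, without overlap, and -0.15 and -0.13 in MHCIIhi and MHCIIlow macrophages, with overlap. Per length of the counted exons, and thus with the long Fcgr2b model, the level of Fcgr1 in LP monocytes and LP MHCIIhi macrophages was above that of Fcgr2b in every library, and in the other 6 groups it was below in every library.

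The make-up of the activating receptors shifted as well. Fcgr1 made up 23.1% ± 2.15 (SD, n = 3) of their summed RPKM in LP monocytes and 8.23% ± 0.96 in tumour monocytes, and Fcgr3 61.1% ± 2.65 and 82.1% ± 3.25. In MHCIIhi macrophages the share of Fcgr1 was 17.2% ± 0.88 in LP and 9.77% ± 0.58 in tumours, and that of Fcgr3 was 55.7% ± 1.86 and 67.6% ± 3.13. In both populations the tissues did not overlap in either share. Fcgr4 was the second receptor of LP MHCIIhi macrophages, with 27.0% ± 1.49, and held 9.48% ± 6.62 in LP MHCIIlow macrophages, where Fcgr3 held 78.9% ± 9.56. In neutrophils Fcgr1 was under 1% of the sum, with 0.326% ± 0.154 in LP and 0.136% ± 0.067 in tumours, and Fcgr3 held 75.3% ± 1.92 and 80.6% ± 2.51. These shares describe levels per length of the counted exons and not receptors at the surface.

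**Figure D4:**
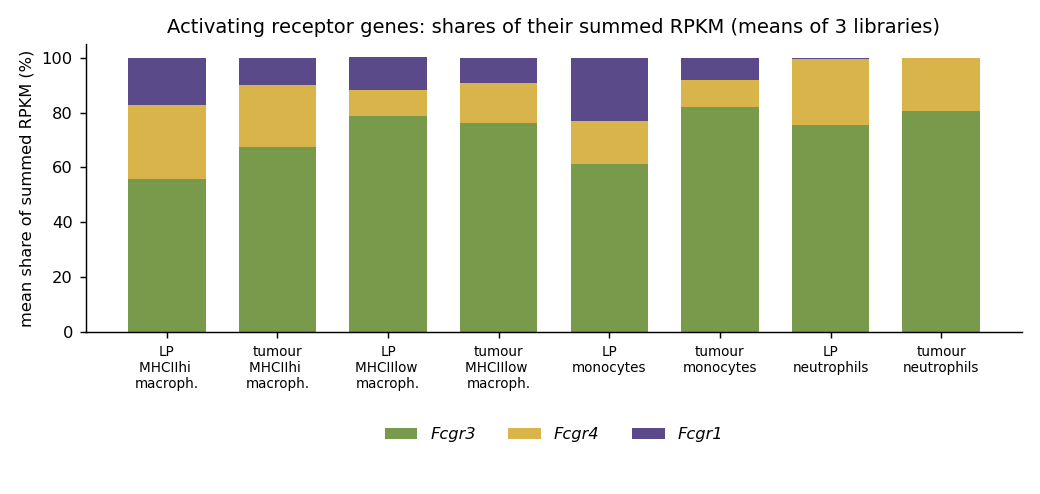
Share of Fcgr1, Fcgr3 and Fcgr4 in their summed RPKM, in percent, as stacked bars of the means of 3 libraries in each of the 8 groups. Fcgr3 takes most in every group, from 55.7% in LP MHCIIhi macrophages to 82.1% in tumour monocytes, and Fcgr1 falls from 23.1% to 8.23% between LP and tumour monocytes.

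The signalling genes downstream of these receptors were read from lists of ITAM signalling (18 genes), ITIM signalling (8), the phagocytic cup (9), other Fc receptors (12, of which 7 were tested) and other receptors that use Fcer1g (6, of which 4 were tested). In the ITIM list, 4 genes rose and 0 fell in tumour MHCIIhi macrophages, with a median log2 fold change of 0.40 against 0.00 for all genes, and 4 rose and 1 fell in tumour MHCIIlow macrophages (0.43 against 0.06). In monocytes 2 rose (0.23 against 0.00), and in neutrophils 2 rose and 1 fell (0.16 against -0.12). Of all genes 19.5%, 23.3%, 9.29% and 32.2% were called in these comparisons, so that the share in neutrophils was near that of all genes. Without the scaling factors the counts in monocytes were 0 and 0, and in neutrophils 1 rose and 2 fell. Ptpn6, the phosphatase SHP-1 that binds ITIMs, rose by 1.66 in MHCIIhi macrophages (limma adjusted p = 6.73e-06), 2.05 in MHCIIlow macrophages (4.29e-07), 0.82 in monocytes (0.0125) and 1.14 in neutrophils (0.000249). Under the other scalings it was past the threshold in each population, except for monocytes without the factors (0.66, adjusted p = 0.065).

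Inpp5d, the phosphatase SHIP1 that Fcgr2b recruits, rose by 0.62 in MHCIIhi macrophages (limma adjusted p = 0.00945), 0.65 in MHCIIlow macrophages (0.00547) and 0.72 in monocytes (0.00712, and 0.0508 without the factors). In neutrophils its difference was 0.26 (0.236), and it turned to -0.21 without the factors. Dok3, an adaptor that dampens signalling, rose by 1.12 and 1.13 in the macrophage subsets (4e-05 and 2.74e-05) and differed by 0.22 in monocytes, and this difference between MHCIIhi macrophages and monocytes was itself past the threshold (0.89, limma adjusted p = 0.0207). Csk, the kinase that keeps Src family kinases inactive, rose by 1.16 and 1.42 in the macrophage subsets (0.00162 and 0.000191), and in neutrophils by 0.65 (0.044), which was 0.18 (0.596) without the factors and 0.58 (0.0903) after quantile normalization. Dok2, another adaptor of this kind, fell in MHCIIlow macrophages (-1.12, limma adjusted p = 0.017) and Dok1 in neutrophils (-1.98, 0.000694).

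The ITAM list moved in both directions. Between tumour and LP, 4 genes rose and 4 fell in MHCIIhi macrophages, 5 rose and 1 fell in MHCIIlow macrophages, 3 rose in monocytes, and 3 rose and 3 fell in neutrophils (1 and 11 without the factors). The medians were 0.12, 0.18, 0.09 and -0.07. Of all genes 19.5%, 23.3%, 9.29% and 32.2% were called, and the share of the list called in neutrophils was near that of all genes. Plcg2, the phospholipase that Syk activates, rose by 0.74 in MHCIIhi macrophages (limma adjusted p = 0.0138), 1.33 in MHCIIlow macrophages (6.53e-05), 0.83 in monocytes (0.0127, and 0.0715 without the factors) and 1.94 in neutrophils (8.83e-07). Pik3cd, the leukocyte catalytic subunit of phosphoinositide 3-kinase, rose by 0.70, 0.98, 0.82 and 0.76 in the same order (0.00795, 0.000378, 0.0051 and 0.00276), and by 0.29 in neutrophils without the factors, where it was not past the threshold (0.239). Syk itself fell in MHCIIhi macrophages (-0.63, limma adjusted p = 0.0198), as did Vav3 (-1.95, 9.21e-07), Grb2 (-0.85, 0.00691) and the Src family kinase Fgr (-0.68, 0.00507). In MHCIIlow macrophages the difference in Syk was -0.01 (0.985), and in monocytes 0.17 (0.671). Vav3 was lower in tumour MHCIIlow macrophages too, at 1.48 against 2.69 log2 RPKM in LP, without overlap. Lcp2 stood at 6.95 in tumour and at 5.87 in LP monocytes. In neutrophils, in the deposited scaling, Syk was lower in tumours (7.47 against 7.86), without overlap. So were the means of Src (-0.88 against 0.73), Lat2 (2.95 against 4.01) and Pik3r1 (2.72 against 3.49).

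Within the LP, 8 of the 18 ITAM genes were lower in MHCIIlow than in MHCIIhi macrophages. These 8 fell and 0 rose (median -0.59, against -0.03 for all genes, of which 7.7% were called), and 4 fell without the scaling factors (median -0.34). Syk stood at 5.03 against 6.17 log2 RPKM, a difference of -1.14 (limma adjusted p = 0.000506), and Fgr (-1.10, 0.000221), Pik3cd (-0.94, 0.0021) and Vav3 (-0.87, 0.0105) followed. Others were level or higher without passing the threshold, such as Lcp2 (0.15) and Cblb (0.46), which were named after their values were seen. In tumours 0 of the 18 passed the threshold between the subsets, against 1.13% of all genes (median -0.23), and the difference in Syk was -0.53 (0.202).

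The phagocytic cup list holds genes for the actin that closes around a bound particle, and the genes called rose in tumours: 3 in each macrophage subset, 2 in monocytes and 6 in neutrophils, with 0 lower. Of the 9 genes, the medians were 0.25, 0.54, 0.37 and 0.76, against 0.00, 0.06, 0.00 and -0.12 for all genes, of which 19.5%, 23.3%, 9.29% and 32.2% were called. Without the factors the counts were 4, 4, 1 and 1, with 1 lower in neutrophils. Coro1a, an actin-binding protein of leukocytes, rose by 1.10 in MHCIIhi macrophages, 1.96 in MHCIIlow macrophages, 0.77 in monocytes and 1.06 in neutrophils (limma adjusted p = 0.000134, 1.43e-07, 0.0075 and 0.000129) and was past the threshold in all 4 populations under each scaling. Myo1f, a leukocyte myosin, rose by 1.12 and 1.57 in the macrophage subsets (0.0022 and 6.77e-05).

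Of the other receptors that use Fcer1g, Clec4n (Dectin-2) rose by 0.73 in MHCIIhi (limma adjusted p = 0.0308) and by 1.21 in MHCIIlow macrophages (0.00063), while Clec4d fell (-1.32, 0.000402, and -1.04, 0.00257). Clec4e (Mincle) fell in MHCIIhi macrophages (-1.84, 4.92e-06) and rose in neutrophils (0.99, 0.0017), and Pira2 fell in MHCIIhi macrophages (-1.38, 0.00122). Among other Fc receptors, Fcrlb rose in MHCIIlow macrophages (2.19, limma adjusted p = 0.00465) and in neutrophils (2.83, 0.000443). Fcrls was lower in tumour neutrophils, where it is at or near 0 reads, so that no fold is given. B2m, the partner of Fcgrt, stood at 10.20 to 10.94 log2 RPKM in the group means, and its tumour effects ran from -0.15 to 0.06 (adjusted p from 0.697 to 0.934).

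**Figure D5:**
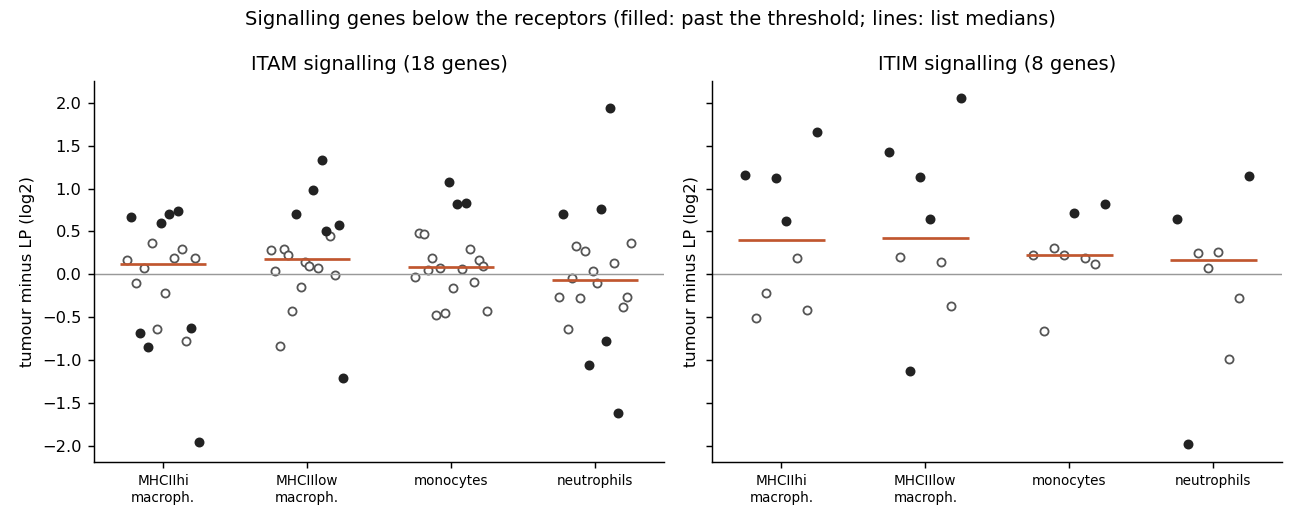
Tumour minus LP log2 fold changes of the 18 genes of the ITAM list (left) and the 8 of the ITIM list (right) in the 4 populations, with 1 point per gene, filled where the limma adjusted p was under 0.05, and a line at the median of the list. Ptpn6 is the highest point on the right, at 2.05 in MHCIIlow macrophages, and called genes of the ITAM list lie on both sides of 0 in all populations but monocytes.

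Across the 24 libraries, the genes of most similar pattern were found by Pearson's r of log2 RPKM, as a description, since the libraries fall into 8 groups and share their scaling. Fcgr2b was closest to Ms4a6c (r = 0.983), Hivep3 (0.976) and Prkcsh (0.971), and Fcgr1 to Clec4a1 (0.984), Evl (0.972) and Isg20l2 (0.970). Fcer1g was closest to Tyrobp (0.965), which encodes the other common ITAM adaptor of myeloid cells, Wfdc17 (0.960) and D8Ertd738e (0.957). Fcgr3 was closest to Smim14 (0.970), Fcgrt to Snhg17 (0.973) and Fcgr4 to Tspan13, with the lowest value of the 6 (0.898). Between the members, r was 0.853 for Fcgr1 and Fcgr2b, 0.867 for Fcgr3 and Fcer1g and -0.898 for Fcgr1 and Fcer1g. By ranks (Spearman's rho) these pairs were weaker, at 0.521, 0.68 and -0.737. The positive value for Fcgr1 and Fcgr2b is over all groups, while between the tissues they moved in opposite directions in monocytes and neutrophils.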

How the data were processed

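Sorted cells were lysed, and their RNA was turned into libraries by a SMARTSeq v2 method that the authors had modified. Per the labels and methods, the authors mapped paired reads to GRCm38 with STAR (2.3 in the submitters' notes), counted them in GENCODE genes with featureCounts (1.5), removed genes with few reads and scaled the libraries. edgeR is also named in the notes. The deposited values are log2 RPKM. The GENCODE release, the use of strand in counting and the treatment of reads with several matches are not given in the sources used here.

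Ensembl identifiers were matched to symbols with GENCODE M21 (17190 of 17301). Whole reads were recovered from all 415224 deposited values (100%) with a prior of 0.25 reads, which gave the depth of each library (12.8 to 41.7 M reads, median 26.4 M). limma (3.58.1, R 4.3.3) with an intensity trend took the deposited values as they were, with a mean for each group over 24 libraries, for genes with a mean of at least 1 RPKM in at least 1 group. Benjamini-Hochberg adjustment was made within each of 15 comparisons, with a threshold of 0.05 and two-sided tests. The procedure was tested on simulated data, with the same spread for all genes and changes only in tumour MHCIIhi macrophages. That test does not bear on the scaling of neutrophils or on the library with 0 reads for Fcgrt. Values after ± are SDs over 3 libraries. A level with 0 reads was bounded at 3 reads.

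The libraries of a group carry different pool numbers. The labels call this number a donor. It was taken here as a pool of mice shared by populations within a tissue, which would pair libraries, but the labels do not state this. Deviations from group means had correlations from -0.0661 to 0.255 (median 0.0169) in 29 pairs of the same pool, against a median of -0.0114 in 79 other pairs. The pool was therefore used as a replicate block in alternatives. Other alternatives changed the pseudocount, the filter, the scaling, the libraries in the fit, library weights and the model (voom on recovered reads). A fit without the neutrophil libraries and one without scaling factors were chosen after seeing the data. Named genes of the lists were Inpp5d, Ptpn6, Syk and B2m in each comparison described, and up to 4 genes past the threshold with the largest change per list. Members and lists were chosen with earlier results of these data known. Python 3.11.15 with numpy 2.4.6, pandas 2.3.3 and matplotlib 3.10.9 was used for tables and plots.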

Additional observations from a re-analysis of the deposited data

Results flagged for a closer look

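The tumour effect on Fcgr3 differed between neutrophils and monocytes by -0.86 on the log2 scale, by a test of the difference itself (limma interaction, adjusted p = 0.0491). Fcgr3 was higher in all tumour than in all LP monocyte libraries and lower in all tumour than in all LP neutrophil libraries. The difference was -0.70 with libraries centred on their median (0.124), and its adjusted p over the alternatives ran from 0.000325 to 0.124.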

How the results depend on the processing

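Of 1151 fold changes of single members under an alternative, 984 kept their direction and their side of the threshold, 84 passed it where the reported value had not, 62 no longer passed it and 21 turned their sign. The cause of these changes was not tested.

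Values that turned were, for tumour against LP, Fcgr4 in MHCIIhi macrophages at 0.15 without tumour library VII (lowest such value -0.42), Fcgr1 in MHCIIlow macrophages at -0.05 with median centring, -0.07 with library weights and -0.26, -0.13 and -0.01 without LP library II, tumour library I and tumour library V (highest such value 0.18), and in neutrophils Fcgr3 at 0.00 with centring and Fcer1g at -0.18 without factors. Between MHCIIlow and MHCIIhi macrophages of the LP, Fcgr3 turned to 0.00 (quantile normalization), 0.19 (no factors), 0.04 and 0.01 (without MHCIIhi library V and MHCIIlow library III) and Fcgr2b to 0.04 (no factors). In tumours Fcgr3 turned to 0.00 (quantile) and 0.06 (without MHCIIlow library VII), and Fcer1g to -0.03 (centring) and to -0.33, -0.03 and -0.05 (without MHCIIhi library V and MHCIIlow libraries I and VII, with 0.32 as the highest such value). Fcgr3 in tumour neutrophils against monocytes turned to -0.78 (quantile) and -0.25 (no factors).

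The number of members past the threshold moved by over 1.5 times as follows, and smaller moves are not listed. For tumour against LP in MHCIIhi macrophages (0) it was 1 with log2(RPKM + 1), a filter of 5 RPKM or only the libraries compared, 2 with quantile normalization, library weights, no neutrophil libraries or no factors, and 3 with voom. In MHCIIlow macrophages (0) it was 1 with log2(RPKM + 1), only macrophage libraries or no neutrophil libraries, 2 with voom and 3 with quantile normalization. In neutrophils (2) it was 1 with only the libraries compared (Fcgr4, which is not among the 2) or voom (Fcgr2b), and 4 without factors. Between the macrophage subsets of the LP (1) it was 2 with log2(RPKM + 0.1), a filter of 5 RPKM, quantile normalization, centring, library weights and either replicate block, and 3 with log2(RPKM + 1), only macrophage libraries, voom or no neutrophil libraries. For MHCIIhi macrophages against monocytes in LP (0) it was 1 with either pseudocount, quantile normalization, library weights, the fixed replicate block, voom or no neutrophil libraries, and 2 with only the libraries compared. In tumours (1) it was 2 with log2(RPKM + 1), quantile normalization, centring, library weights or no factors, and 3 with voom. For MHCIIlow macrophages against monocytes in tumours (2) it was 1 with quantile normalization, only the libraries compared, the fixed block or no factors. For neutrophils against monocytes it was 3 with quantile normalization in LP (5) and 3 without factors in tumours (6). For the difference of tumour effects it was 1 with voom or no neutrophil libraries between macrophage subsets (0), and 0 with centring or library weights between neutrophils and monocytes (1).

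Leaving out 1 library gave 0 to 1, 0 to 2, 1 to 2 and 2 to 3 members in the comparisons of tumour with LP in MHCIIhi and MHCIIlow macrophages, monocytes and neutrophils, 0 to 1 for MHCIIhi and 0 to 2 for MHCIIlow macrophages against monocytes in tumours, 2 to 3 for the latter in LP, and 0 for the differences of tumour effects. The balance of activating and inhibitory receptors then shifted by -0.52 to -0.35, -0.14 to -0.04, -1.02 to -0.68 and -1.27 to -0.84 in the 4 populations. With 1 activating receptor at a time it shifted, in MHCIIhi and MHCIIlow macrophages, monocytes and neutrophils, by -1.24, -0.40, -2.31 and -2.36 for Fcgr1 and by -0.68, 0.77, -1.56 and -1.44 for Fcgr4, and for Fcgr3 by -0.15 in MHCIIhi macrophages and -0.39 in monocytes. The random replicate block brought Fcgr1 between LP macrophage subsets past the threshold (0.0474). Besides this and the values of the fixed block in the report, the replicate block changed no other call.

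Over all genes, the share of called genes that were higher moved without factors from 44.2% to 21.3% for neutrophils against monocytes in LP, from 40.0% to 15.5% in tumours and from 40.8% to 15.9% for tumour against LP neutrophils, where centring gave 53.1% and 57.1% for the last pair. It also moved without factors for tumour against LP in monocytes (52.3% to 33.0%) and MHCIIhi macrophages (41.1% to 52.2%) and between the subsets of the LP (27.6% to 63.8%).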
